A study of Homo sapiens with 12 samples.

Results

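The genes described here are the numbered CEP genes, whose symbol is CEP followed by digits alone, such as CEP68 or CEP164, without CEP55 and CEP290. They were picked by name from the platform annotation, but this name family was chosen with earlier results of these data known. A probe of one gene name exists for 31 of them, and 27 were measured, of 11238 genes measured in all. A gene counts as measured when at least 1 of its probes had a detection p-value under 0.01 on 2 or more of the 12 arrays. The remaining 4, CEP15, CEP97, CEP112 and CEP126, were detected on 0 of the 12 arrays with every probe, so no change can be given for them.

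The cells were LNCaP, human prostate cancer cells that respond to androgen, and every group is this 1 line with no genetic change. In the miR-135b groups the cells received a pre-miR-135b precursor, and in the Scr groups a scrambled pre-miR. Both were transfected at 20 nM, so the Scr cells also carry the effects of transfection, and RNA was taken after 12, 24 and 36 h. Each treatment and time had 2 biological repeats, which gives 6 miR-135b arrays and 6 Scr arrays, and this small number limits the precision of every value. The series title puts the question as the effect of raised miR-135b on gene expression in these cells.

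The centrosome is built around a pair of centrioles, barrels of microtubules that are copied once in each cell cycle, and it organises the microtubules of the cell. In non-dividing cells the older centriole can dock at the membrane through its appendages and become the base of a primary cilium. CEP proteins were named for being found at this structure, not for sharing a sequence, and they act at different places in it: in centriole assembly, on the appendages, in satellites, in the linker that holds centrosomes together, and along the cilium.

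A microRNA binds target messenger RNAs mainly through its seed, bases 2 to 8. Both mature strands of miR-135b are shown for their seeds, and which of them the precursor delivers was not measured here. They are the RefSeq mature sequences on the minus strand of GRCh38.p14, 5′ to 3′, with the seed in capitals.
hsa-miR-135b-5p at chr1:205448361-205448383: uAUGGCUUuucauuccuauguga
hsa-miR-135b-3p at chr1:205448323-205448344: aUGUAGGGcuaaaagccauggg
The letters that pair with the 5p seed in a target RNA are AAGCCAU. Target sites in the CEP messenger RNAs were not analysed here, and the arrays do not read the miR-135b strands.

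Each array detected from 15967 to 17856 probes. The SD between the repeats of a group had a median of 0.115 to 0.167 over the CEP genes, close to the 0.121 to 0.164 over all genes, on the log2 scale. All 8 luminal prostate markers with a named probe were detected on 12 of 12 arrays. Of the markers of other cell types, KRT5 and KRT14 (basal), COL1A2, DCN and LUM (fibroblast), PTPRC and CD3E (leukocyte) and CHGA and SYP (neuroendocrine) were detected on 0 arrays. COL1A1, CD68 and ENO2 were detected on all 12, and LAMB3 and CD79A on 2. Because the arrays read bulk RNA, fewer cells of a type and less RNA per cell cannot be told apart.

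Averaged over the 3 times, most numbered CEP genes had nearly the same level in miR-135b cells as in Scr cells. An average can hide opposite effects at single times, which are given below. Over the mean of the 3 times, 1 of the 27, CEP68, fell, 0 rose and 26 did not pass limma's moderated test at an adjusted p of 0.05, with Benjamini-Hochberg adjustment over all 11238 genes. The share called was 3.7%, near the background of 4.78% of all genes (2.81% fell and 1.97% rose). In a fit that paired arrays by repeat number it was also 3.7%, below the 11.6% of all genes. At an unadjusted p under 0.05 the count was 2 of 27 (7.41%), CEP68 and CEP43, against 17.8% of all genes. The log2 fold changes, miR-135b over Scr, ran from -0.52 to 0.24 with a median of 0.02, and the median over all genes was 0.00. Of the 27 genes 13 lay below 0 and 14 above.

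For most of the genes the intervals were narrow. The 95% confidence interval of the mean effect stayed within a 1.5-fold change either way for 24 of the 27, or 88.9%, beside 85.9% of all genes. The exceptions were CEP68, CEP19 and CEP57, and within a 2-fold change the interval held for 27 of 27. The 24 include CEP170 and CEP76, each detected on 3 of the 12 arrays. For such dim genes the offset added in the processing makes fold changes smaller, so a narrow interval there says little. At a single time the intervals were wider and stayed within 1.5-fold for 16 genes at 12 h, 14 at 24 h and 9 at 36 h.

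**Figure D1:**
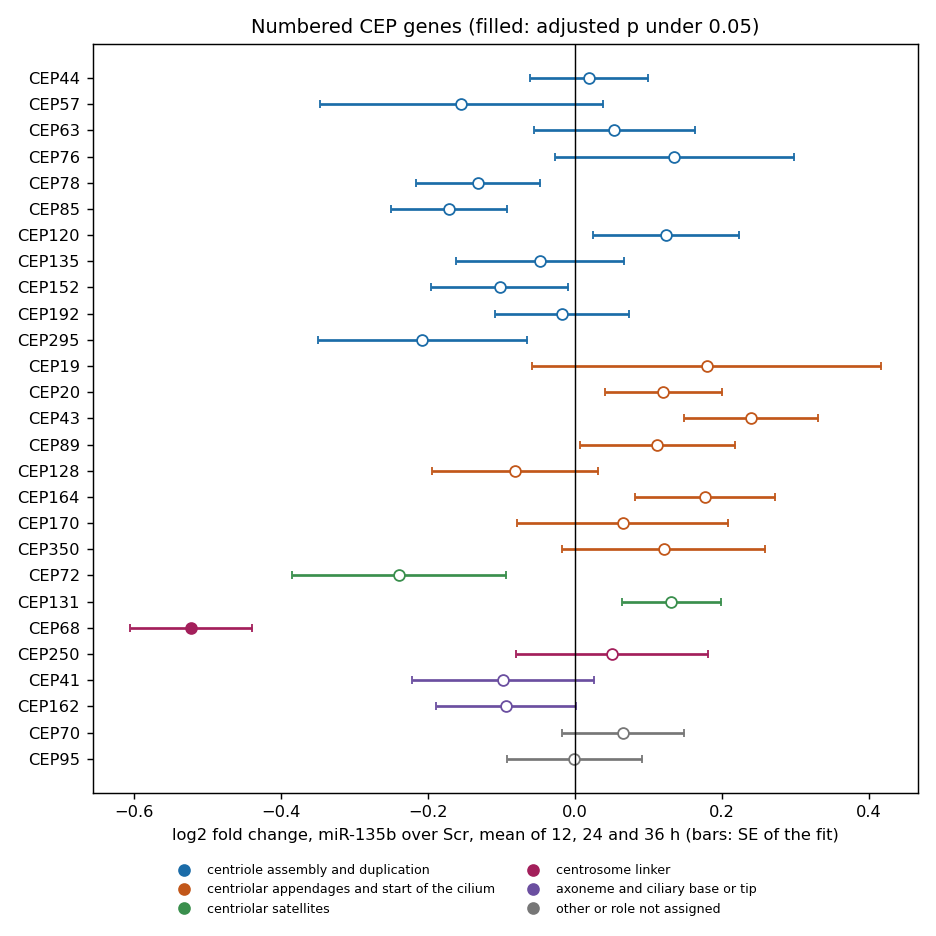
Log2 fold change, miR-135b over Scr, in the mean of 3 times for the 27 numbered CEP genes, grouped by role, with error bars of 1 SE of the fit. CEP68, the filled point at -0.52, is the gene that passed an adjusted p of 0.05, and the other values lie between -0.24 and 0.24.

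The linker that ties the centrioles of a cell together before division was represented by CEP68 and CEP250. CEP68 is a linker component that is lost from centrosomes at mitosis, when the linker comes apart. Its normalized log2 signal in miR-135b cells was 5.38 and 5.65 at 12 h, 5.26 and 5.53 at 24 h, and 5.51 and 5.62 at 36 h. In Scr cells it was 5.78 and 5.67 at 12 h, 6.23 and 6.16 at 24 h, and 6.08 and 6.15 at 36 h. Every one of the 6 miR-135b arrays lay below every one of the 6 Scr arrays, although at 12 h the nearest values, 5.65 in miR-135b cells and 5.67 in Scr cells, almost met.

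CEP68 fell in the mean of 3 times by a log2 fold change of -0.52 ± 0.08 (SE of the fit, 6 miR-135b and 6 Scr arrays), a ratio of 0.696, with an adjusted p of 0.0066. The confidence interval ran from -0.71 to -0.34. The difference was -0.21 ± 0.14 at 12 h, with an adjusted p of 1.00, and -0.80 ± 0.14 at 24 h, with an adjusted p of 0.0371, both from limma. At 24 h CEP68 was thus the 1 CEP gene called, in a comparison that called 0.81% of all genes, 0.489% as lower.

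CEP68 is a dim gene on this array, and its probe was detected on 2 of 6 miR-135b arrays, repeat 2 at 12 h and repeat 2 at 24 h, against 6 of 6 Scr arrays. At 36 h it was detected on 0 of 2 miR-135b arrays and 2 of 2 Scr arrays, so the fold there is a bound, set by the dimmest signal still detected on an array, or by this probe where it is brighter. By this bound the mean of the miR-135b arrays at 36 h was at least 1.39-fold below that of the Scr arrays. The bound describes 2 arrays per group and leaves out their sampling error. The fit gave -0.55 ± 0.14 at 36 h, with a confidence interval of -0.87 to -0.23. Its adjusted p was 0.0993 from limma, so CEP68 was not called at that time. The call in the mean of 3 times held in all 20 alternative settings that kept the gene, with values from -0.57 to -0.22, and -0.22 was the value from the authors' processed values (adjusted p 0.0436 in limma). The call at 24 h held in 5 of 20 settings and in 2 of the 12 fits that each left out 1 array, those without a miR-135b array at 36 h. Over these 12 fits the value ran from -0.94 to -0.66. Within Scr cells the CEP68 level at 36 h was 0.39 ± 0.14 above that at 12 h, which did not pass (adjusted p 0.291).

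CEP250, also called C-Nap1, anchors the same linker at the base of the centrioles. Its effect was 0.05 ± 0.13 in the mean of 3 times, and at 36 h it was -0.27 ± 0.23. It was detected on 5 of 6 miR-135b arrays and 6 of 6 Scr arrays, and its difference from CEP68 was not tested.

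The appendages and the first steps of cilium formation were represented by 8 genes, of which 0 passed the test. Their median in the mean of 3 times was 0.12, with 7 of 8 above 0 (87.5%, beside 51.1% of all genes), and their range was -0.08 to 0.24. For CEP19 and CEP170 the sign rests on single arrays in fits that did not pair arrays by repeat number: without 1 array each reached -0.04. CEP128, the gene below 0, likewise reached 0.01 without 1 array. No test of the list was made. CEP43, formerly FGFR1OP, is a centriolar protein that works with CEP350 and CEP19 at the start of the cilium. Its log2 signal in miR-135b cells was 8.03 and 8.09 at 12 h, 8.19 and 7.99 at 24 h, and 8.08 and 7.84 at 36 h. The Scr arrays gave 7.58 and 7.89 at 12 h, 7.99 and 7.76 at 24 h, and 7.84 and 7.71 at 36 h. The miR-135b array was the higher in 6 of 6 pairs of the same repeat and time, while the whole ranges of the groups overlapped. The mean effect was 0.24 ± 0.09, with an interval of 0.04 to 0.44 and an adjusted p of 0.196 from limma, so CEP43 was not called. With arrays paired by repeat number, limma gave CEP43 an adjusted p of 0.0513, which did not pass either.

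CEP164 is a distal appendage protein that docks the centriole to the membrane. Its log2 signal in miR-135b cells was 7.95 and 8.06 at 12 h, 7.84 and 8.12 at 24 h, and 8.06 and 8.23 at 36 h. The Scr values were 8.19 and 7.92 at 12 h, 7.65 and 7.93 at 24 h, and 7.66 and 7.85 at 36 h. The groups overlapped at 12 and 24 h and lay apart at 36 h, with the miR-135b arrays higher. The effect at 36 h was 0.39 ± 0.16 with an adjusted p of 0.340 in limma, and that in the mean of 3 times 0.18 ± 0.10.

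Of the other genes of this group, the subdistal appendage proteins CEP128 and CEP170 had mean effects of -0.08 ± 0.11 and 0.07 ± 0.14. CEP89, another distal appendage protein, had 0.11 ± 0.11. CEP350, a large protein that anchors microtubules at the centrosome, had 0.12 ± 0.14, and CEP20, a relative of CEP43, had 0.12 ± 0.08. CEP170 was detected on 1 of 6 miR-135b arrays and 2 of 6 Scr arrays, so its value is a weak measure.

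CEP19, a ciliary base protein that binds CEP350 and CEP43, was read by 3 kept probes that did not give the same answer. The brightest, ILMN_2288483, represents the gene in the test of all genes. Its log2 signal in miR-135b cells was 11.74 and 11.66 at 12 h, 11.16 and 11.55 at 24 h, and 12.08 and 10.76 at 36 h. In Scr cells it was 11.80 and 11.45 at 12 h, 10.71 and 11.22 at 24 h, and 11.80 and 10.92 at 36 h. The repeats at 36 h lay far apart in both groups, with an SD of 0.93 in miR-135b cells and 0.62 in Scr cells. The mean effect by this probe was 0.18 ± 0.24, with an adjusted p of 0.784.

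The CEP19 probe ILMN_1665217 separated the groups. Its log2 signal in miR-135b cells was 7.56 and 7.71 at 12 h, 8.36 and 7.95 at 24 h, and 7.90 and 7.75 at 36 h. Scr cells had 7.17 and 7.38 at 12 h, 7.27 and 7.07 at 24 h, and 6.69 and 6.74 at 36 h. All 6 miR-135b arrays lay above all 6 Scr arrays. In a fit over every one of the 19161 kept probes, which called 2.95% of them (1.23% as higher), it rose by 0.82 ± 0.10 in the mean of 3 times, with an adjusted p of 0.00231.

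By time, the effect on ILMN_1665217 was 0.36 ± 0.17 at 12 h, with an adjusted p of 1.00 in limma over the kept probes. It was 0.99 ± 0.17 at 24 h, adjusted p 0.0466, where 0.459% of the probes were called, and 1.11 ± 0.17 at 36 h, adjusted p 0.0233, where 0.919% were called. The mean call held in 19 of 19 alternative settings, while that at 24 h held in 5 of 19 and that at 36 h in 15 of 19. The 24 h call was lost without any 1 of the 12 arrays, and the 36 h call without any 1 of the 4 arrays at 36 h. The third CEP19 probe, ILMN_1873107, gave 0.24 ± 0.10 in the mean of 3 times, with an adjusted p of 0.287. All 3 probes had a mean above 0. That of the brightest ran from -0.04 to 0.40 when 1 array was left out, with -0.04 without miR-135b repeat 1 at 36 h. Those fits did not pair arrays by repeat number. With pairing and all 12 arrays, the mean effect by the brightest probe was 0.18 ± 0.08 (adjusted p 0.192 in limma), so it was not called. Which transcripts each probe reads was not analysed here. The alternatives for ILMN_1665217 were added after its values were seen.

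**Figure D2:**
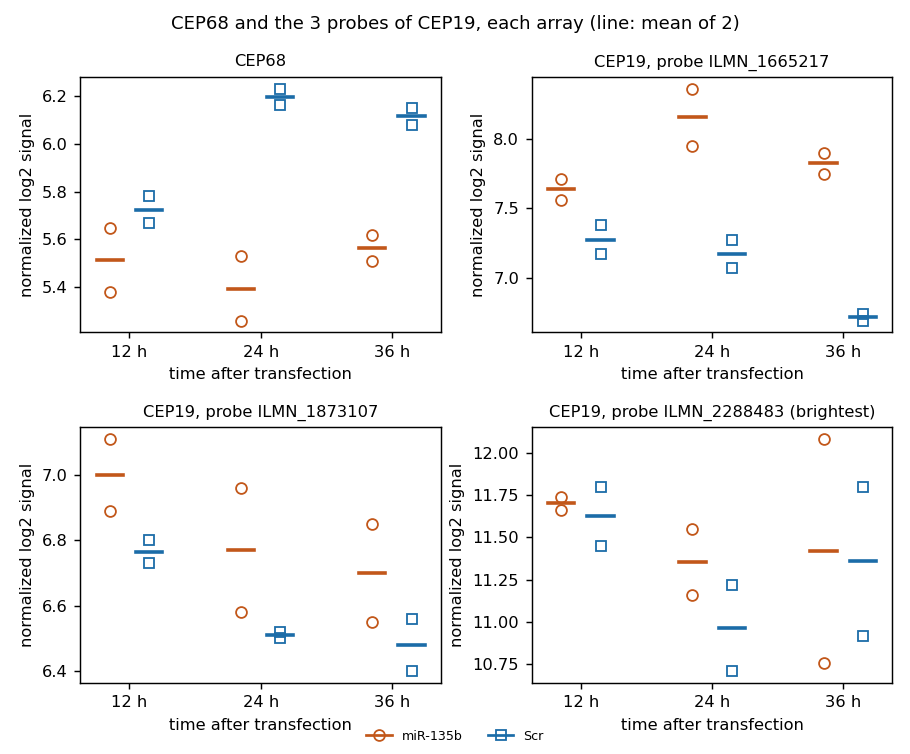
Normalized log2 signal on each of the 12 arrays for CEP68 and for the 3 probes of CEP19, by time after transfection, with miR-135b (circles) left of Scr (squares) and a line at the mean of 2 arrays. The groups do not overlap for CEP68 and for the CEP19 probe ILMN_1665217, and they overlap for the brightest CEP19 probe.

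Centriole assembly and duplication was the best covered role, with 11 measured genes, of which 0 passed the test in the mean of 3 times or at any single time. Their median was -0.05 in the mean of 3 times and -0.17 at 36 h, where 8 of 11 lay below 0 (72.7%, beside 48.1% of all genes). CEP295 is needed for a new centriole to become able to recruit pericentriolar material. Its log2 signal in miR-135b cells was 8.69 and 8.85 at 12 h, 8.43 and 8.05 at 24 h, and 8.58 and 8.03 at 36 h. The Scr arrays gave 8.86 and 8.99 at 12 h, 8.60 and 8.38 at 24 h, and 8.84 and 8.20 at 36 h. The miR-135b array was the lower in 6 of 6 pairs, but the groups overlapped at 24 and 36 h and nearly met at 12 h. The mean effect was -0.21 ± 0.14 with an adjusted p of 0.523 in limma. With arrays paired by repeat number, limma gave CEP295 an adjusted p of 0.063, which did not pass either.

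CEP120, which promotes centriole elongation, had its widest difference at 24 h. Its log2 signal there was 6.85 and 6.98 in miR-135b cells, against 6.46 and 6.25 in Scr cells. That is a difference of 0.56 ± 0.17 with an adjusted p of 0.221 in limma, and the mean of 3 times was 0.12 ± 0.10. CEP78, a protein of the centriole wall, was at -0.39 ± 0.15 at 36 h (adjusted p 0.262 in limma) and -0.13 ± 0.08 in the mean. CEP85, which helps to activate the duplication kinase PLK4, was at -0.31 ± 0.14 at 36 h (adjusted p 0.357 in limma) and -0.17 ± 0.08 in the mean.

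The scaffold that brings PLK4 to the mother centriole contains CEP192, CEP152, CEP63 and CEP57. Their mean effects were -0.02 ± 0.09 for CEP192, -0.10 ± 0.09 for CEP152, 0.05 ± 0.11 for CEP63 and -0.15 ± 0.19 for CEP57. CEP57 was detected on 0 of 6 miR-135b arrays and 2 of 6 Scr arrays, so it passed the detection filter only through the group where it is higher. Its value is therefore a weak measure, also where CEP57 is counted among the genes below 0. CEP135, which joins the inner cartwheel to the centriole wall, had -0.05 ± 0.11. CEP44, which acts in the step from centriole to centrosome, had 0.02 ± 0.08, and CEP76, which limits repeated duplication, had 0.13 ± 0.16 with detection on 2 of 6 miR-135b arrays and 1 of 6 Scr arrays.

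The centriolar satellites, granules that carry proteins around the centrosome, were represented by CEP72 and CEP131. CEP72 had log2 signals in miR-135b cells of 7.47 and 6.78 at 12 h, 6.93 and 6.78 at 24 h, and 6.36 and 6.34 at 36 h. Scr cells had 7.40 and 6.86 at 12 h, 7.08 and 6.99 at 24 h, and 7.11 and 6.65 at 36 h. The groups overlapped at 12 h, and the miR-135b arrays were the lower at 24 and 36 h. The effect was -0.53 ± 0.25 at 36 h (adjusted p 0.402 in limma) and -0.24 ± 0.14 in the mean of 3 times (adjusted p 0.452), so CEP72 was not called. Pairing by repeat number gave CEP72 adjusted p-values of 0.0618 at 36 h and 0.0863 in the mean in limma, which did not pass either.

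CEP131 had a mean effect of 0.13 ± 0.07 with its brightest probe and -0.35 ± 0.15 with ILMN_1742262, which was detected on 7 of the 12 arrays and had an adjusted p of 0.296 over the kept probes. The probes of this gene thus differ in sign, and neither passed. In all, 5 of the 27 genes had several kept probes. The second probe of CEP41 gave -0.26 ± 0.08 (adjusted p 0.162 in limma), that of CEP152 gave -0.15 and that of CEP78 gave -0.05, on the same side of 0 as the probe used.

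**Figure D3:**
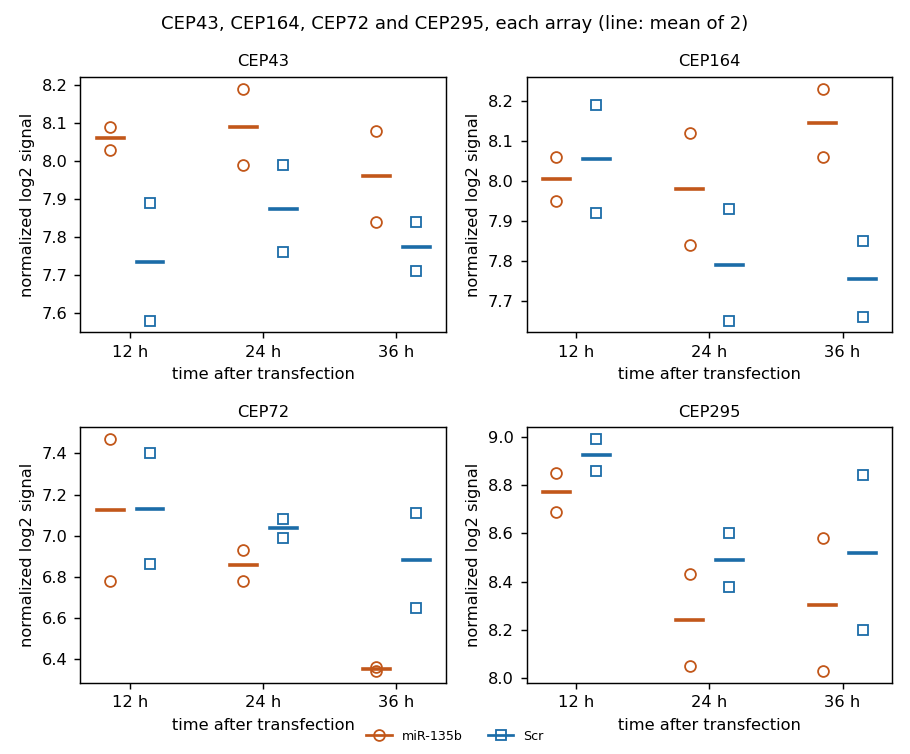
Normalized log2 signal on each of the 12 arrays for CEP43, CEP164, CEP72 and CEP295, by time after transfection, with miR-135b (circles) left of Scr (squares) and a line at the mean of 2 arrays. At 36 h the miR-135b arrays lie above the Scr arrays for CEP164 and below them for CEP72, and none of the 4 genes passed an adjusted p of 0.05.

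The 4 remaining genes had effects near 0, and 0 of them passed the test. CEP41, which is needed for the glutamylation of tubulin in cilia, had -0.10 ± 0.12 in the mean of 3 times, and CEP162, which binds the axoneme at the base of the cilium, had -0.09 ± 0.10. CEP70, a binding partner of gamma-tubulin, had 0.07 ± 0.08, and CEP95 had 0.00 ± 0.09.

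Time by time, the CEP genes were called on 0 occasions at 12 h, where 0.0356% of all genes were called, and 0 had an unadjusted p under 0.05, beside 4.97% of all genes. At 24 h 2 of 27 had an unadjusted p under 0.05, CEP68 and CEP120, beside 11% of all genes. At 36 h again 0 of 27 were called, beside 1.76% of all genes, and 4 of 27 (14.8%) had an unadjusted p under 0.05, beside 13.6% of all genes. Those 4 were CEP68, CEP78 and CEP85, which lay below 0, and CEP164, which lay above. A fit with the repeat number as a block called 1 CEP gene in the mean of 3 times and 1 at 24 h, CEP68 both times, and 0 at 12 h, 36 h or between times. That fit called 11.6% of all genes in the mean, 0.0445% at 12 h, 2.71% at 24 h, 5.71% at 36 h and 0% for 36 h minus 12 h.

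The difference of the 36 h effect from the 12 h effect (36 h minus 12 h) was called for 0 of 27 CEP genes and for 0% of all genes by limma. At an unadjusted p under 0.05 it picked out 2 of 27 (7.41%), CEP128 and CEP162, beside 5.39% of all genes. The median of this difference was -0.15 over the CEP genes and 0.01 over all genes, and 20 of 27 lay below 0 (74.1%), beside 48.1% of all genes. These are counts over genes of the same arrays, and no test of the list was made.

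CEP128 had the widest swing. Its log2 signal in miR-135b cells was 6.43 and 6.65 at 12 h, 6.23 and 6.24 at 24 h, and 5.89 and 6.16 at 36 h. In Scr cells it was 6.35 and 6.05 at 12 h, 6.15 and 6.67 at 24 h, and 6.33 and 6.53 at 36 h. The miR-135b arrays were the higher at 12 h and the lower at 36 h. The difference between those effects was -0.75 ± 0.28 with an adjusted p of 0.849 in limma, and for CEP162 it was -0.56 ± 0.23 with an adjusted p of 0.893.

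**Figure D4:**
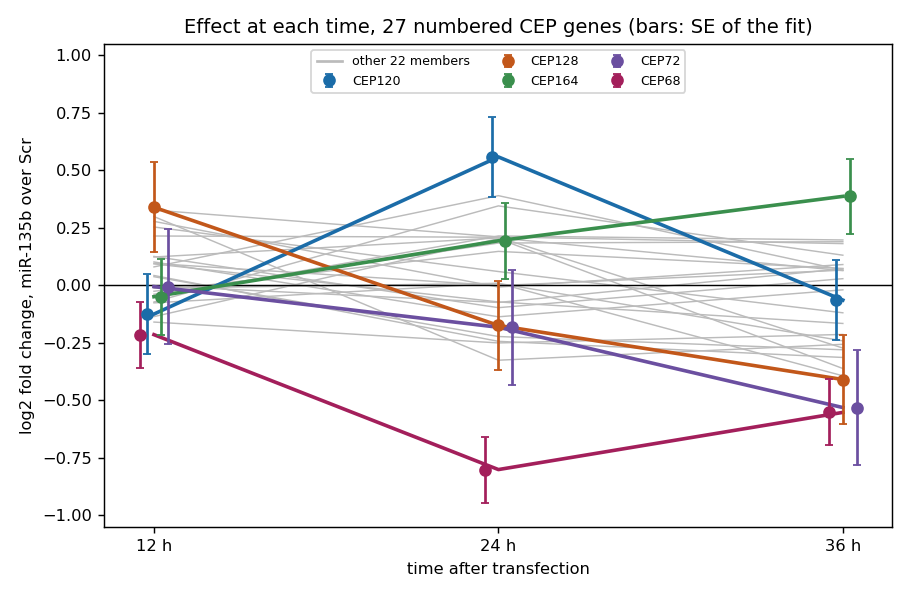
Log2 fold change, miR-135b over Scr, at 12, 24 and 36 h for the 27 numbered CEP genes, with 5 genes in colour and error bars of 1 SE of the fit. CEP68 reaches -0.80 at 24 h, CEP120 has 0.56 at that time, and CEP128 lies at 0.34 at 12 h and at -0.41 at 36 h.

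Scr cells over time give the change that the CEP genes undergo without miR-135b. Between 36 h and 12 h in Scr cells 0 of 27 were called, beside 0.0178% of all genes, and 5 of 27 (18.5%) had an unadjusted p under 0.05, beside 13.5% of all genes. Among them CEP20 and CEP152 were both at -0.45, CEP162 at 0.49, CEP68 at 0.39 and CEP70 at 0.35. The median was -0.10 over the CEP genes and -0.01 over all genes. These Scr arrays also enter the comparisons with miR-135b, so the values are not independent of those above.

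Of the proteins that work with the CEP genes, 49 others were measured in 3 lists. Over the mean of 3 times 1 rose and 1 fell, with a median of -0.03. That is 4.08% called, near the background of 4.78% of all genes. CETN2, a centrin of the centriole lumen, rose by 0.40 ± 0.09 (adjusted p 0.0285 in limma). Its effect was -0.07 at 12 h, 0.40 at 24 h and 0.87 ± 0.15 at 36 h, the last with an adjusted p of 0.0225. HAUS1, a subunit of the augmin complex that branches spindle microtubules, fell, at -0.34 ± 0.08 (adjusted p 0.0470 in limma). Both calls are near the threshold: that of CETN2 in the mean of 3 times held in 11 of 21 alternative settings and that of HAUS1 in 7 of 21. Of the 12 fits without 1 array, 3 kept the CETN2 call and 1 kept that of HAUS1.

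Among the 14 procentriole assembly partners the median was -0.06, and 1 rose (7.14%, beside 4.78% of all genes called). At an unadjusted p under 0.05 the count was 7 of 14 (50%), beside 17.8% of all genes. Of these CPAP, PLK4, RTTN and STIL lay below 0, and CETN2, PPP1R35 and WDR90 above. At 36 h it was 6 of 14 (42.9%), beside 13.6%. Those 6 were PLK4, CPAP, RTTN, STIL and POC1A, which lay from -0.66 to -0.31, and CETN2 at 0.87. Over all 14 genes, 7 lay below 0 at 36 h and 7 above. No test of the list was made. PLK4, the kinase that starts duplication, had -0.33 ± 0.10 (adjusted p 0.0938), and WDR90, a centriole wall protein, had 0.36 ± 0.09 (adjusted p 0.0528). With the repeat number as a block, limma's adjusted p was 0.0159 for PLK4 and 0.0282 for WDR90, so both would be called in that fit. It called 3 of the 14 (21.4%) and 6 of all 49 genes (12.2%), beside 11.6% of all genes, while the fit without the block called 4.78%. Among the 18 genes of the pericentriolar material and gamma-tubulin complex the median was -0.05 and 1 fell, and TUBG2, a gamma-tubulin, had 0.26 ± 0.09 and TUBGCP4 -0.17 ± 0.09, with adjusted p-values of 0.154 and 0.358 in limma.

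Of the 17 appendage, satellite and linker partners 0 passed, and their median was 0.03. KIF24, a kinesin that restrains cilium formation, had 0.27 ± 0.15, ODF2, a subdistal appendage protein, had -0.25 ± 0.11, and SDCCAG8 had 0.21 ± 0.12. The block fit called KIF24 and ODF2, with adjusted p-values of 0.0376 and 0.0362, while without it they were 0.418 and 0.288 in limma. These 2 of 17 (11.8%) are at the background of the block fit, 11.6% of all genes.

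A feature that the choice by name did not use is the promoter. RefSeq promoters of 300 bases on GRCh38.p14, 250 before and 50 after the start, matched 25 of the 27 genes, and 3 short motifs were searched on both strands. The E2F-type motif TTCCCGC was in 8 of 25 (32%), beside 6.56% of all 27305 promoters, which include those of genes not measured here. The CHR motif TTTGAA, known from genes of late cell cycle stages, was in 9 of 25 (36%), beside 15.4% of all. The RFX half-site GTTGCC, known from ciliary genes, was in 6 of 25 (24%), beside 12.2% of all. The median GC content was 64% in the CEP promoters and 58.3% in all promoters, and a match is a description of letters, not of binding.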

How the data were processed

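Signal intensity, not normalized, and a detection p-value for 47323 probes were deposited, per the file headers. The log2 values processed by the authors, also deposited, were an alternative. The submitters' processing notes name GenomeStudio 2010.2 and lumi 1.8.3 and give no role for either. With limma 3.58.1 in R 4.3.3, intensities were normexp corrected (control levels inferred from detection p-values, offset 16), quantile normalized and put on the log2 scale, and a gene was its brightest kept probe with 1 symbol. Group means were fitted on 12 arrays with 6 residual degrees of freedom. For dim genes such as CEP68 the offset makes fold changes smaller, while the background correction makes them larger. The CEP68 value in the mean of 3 times was -0.52 here, -0.32 with an offset of 50 and -0.22 with no background correction.

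Deviations of arrays with the same repeat number correlated at 0.44, 0.44 and 0.55, above the limit of 0.1, so the numbers were taken to pair arrays within a time. The fit with that block, an alternative, had 3 residual degrees of freedom.

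The genes and lists were chosen with earlier results of these data known. CEP genes that passed in any contrast and the 6 with the largest mean change were described in full, the rest by their mean effect. CEP120, CEP128, CEP78, CEP85 and CEP162 at single times were picked after their values were seen. Other centrosome genes were named where they passed, plus up to 3 per list with the largest change. The procentriole assembly partners with an unadjusted p under 0.05 were also named, after their values were seen. Alternatives changed background correction, scaling, filter, probe choice and pairing, or left out 1 array. The fit was tested on simulated data.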

Additional observations from a re-analysis of the deposited data

How the results depend on the processing

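The repeat number as a block changed no call of a CEP gene, but raised the number of all genes called to 1305 in the mean of 3 times, 304 at 24 h and 642 at 36 h, against 537, 91 and 198 without it. With median scaling instead of quantiles, the calls numbered 348, 0, 39 and 88 in the mean, at 12 h, 24 h and 36 h. At 24 h its calls were 59% higher in miR-135b cells (23 rose, 16 fell), against 39.6% (36 rose, 55 fell) with quantile normalization. The median of all genes in the mean of 3 times moved to 0.031, against 0.004. At 12 h, where 4 genes were called, the authors' values and no background correction gave 9 each, an offset of 50 gave 7, no detection filter 2 and every kept probe 0. The authors' values gave 299 at 36 h. In Scr cells, 36 h against 12 h, 2 genes were called, and 20 with the authors' values or with no background correction, 17 with the offset of 50, 14 among genes detected on all 12 arrays and 1 with the mean of probes. Leaving out 1 array gave 311 to 483 genes in the mean, 0 to 1 at 12 h, 2 to 101 at 24 h, 9 to 159 at 36 h, 0 to 4 in Scr cells over time and 0 to 0 for the difference between 36 h and 12 h. These fits have fewer arrays.

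Of the CEP genes, 1 was called in the mean in each fit without 1 array (1 to 1), and 0 to 1 at 24 h. Restricting to genes detected on all 12 arrays leaves CEP68 out and gave 0 in the mean and at 24 h. Taking every kept probe gave 2 genes in the mean, CEP68 and CEP19, 1 at 24 h and 1 at 36 h, both CEP19. In that setting CEP68 at 24 h kept its value, -0.80, with an adjusted p of 0.0621 over the probes. Its 24 h call was also lost, to 0 genes, with the authors' values (-0.34, adjusted p 0.155), no background correction (-0.35, 0.152), the offset of 50 (-0.49, 0.085) and median scaling (-0.71, 0.137), and the cause was not tested. The mean effect took the other sign in at least 1 setting for 10 of the 27 genes, with adjusted p-values of 0.614 or more there. CEP131 turned to -0.11 (adjusted p 0.614) with the mean of its probes, which averages probes of opposite sign. The other 9 turned when 1 array was left out, CEP192 with median scaling too. The fits without 1 array did not pair arrays by repeat number. CEP57 reached 0.04 (without Scr 24 h repeat 2), CEP128 0.01, CEP135 0.02 and CEP192 0.05. CEP19 and CEP170 reached -0.04, CEP250 -0.07, CEP44 -0.03 and CEP63 -0.02.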

Other observations

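Relatives of these genes whose symbol carries a letter were left out of the counts. CEP170B, detected on 4 of 6 miR-135b arrays and 5 of 6 Scr arrays, had a mean log2 fold change of -0.26 ± 0.29 (adjusted p 0.743 in limma). CEP57L1 was detected on the 2 miR-135b arrays at 12 h and on 0 Scr arrays. It passed the detection filter only through the group where it is high, so no test is given. By the bound used for CEP68, its mean at 12 h was at least 1.07-fold higher on the miR-135b arrays. This bound leaves out sampling error too. CEP85L, CEP170P1 and CEP192P1 did not pass the detection filter.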
